A study of Mus musculus with 13 samples.

Results

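The Hedgehog pathway genes Shh, Ihh, Ptch1, Smo, Gli1, Gli2, Gli3, Hhip and Sufu were examined in mammary tumors that overexpressed TSG101 and in normal mammary glands. These 9 genes were taken by symbol from a table of read counts per gene, which listed 8 of them among its 15213 genes. Ihh was not analysed here. RNA sequencing covered 10 mammary tumors, which came from 6 females of the MMTV-tTA TetO-Tsg101 strain (genotype in the labels, MtTA Teto-TSG101wt), and 3 normal mammary glands, each from a wild-type FVB female. In the tumor group, the tetracycline-controlled transactivator (tTA) was driven by the MMTV promoter, which is active in a mosaic of luminal epithelial cells, and it switched on a TetO transgene for HA-tagged mouse TSG101 followed by a luciferase reporter. TSG101 is a subunit of the machinery that sorts receptors in endosomes. No doxycycline, the drug that switches the transgene off, is named for these samples. The study carried all transgenes in the FVB/N background and did its molecular work on founder line #1. The glands carried neither transgene. The ages of the animals and the reproductive stage of the glands were not given in the sources used here. The 10 tumors were not all independent, because tumors 2 and 3, tumors 5 and 6, and tumors 8, 9 and 10 were taken from the same animal.

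Hedgehog signaling begins when a ligand, such as Sonic hedgehog (Shh) or Indian hedgehog (Ihh), binds the receptor Patched (Ptch1) on a neighboring cell. Unbound Patched keeps the membrane protein Smoothened (Smo) inactive. Once Smo is released, the transcription factors Gli2 and Gli3 are no longer processed into repressors, and Gli1, Ptch1 and Hhip are transcribed, for which reason these genes are commonly read as a measure of the pathway's activity. Hhip binds and sequesters the ligand and Sufu holds Gli proteins back, so both act as inhibitors. In skin, Shh from the epithelium directs the growth of hair follicles, and a pathway that is permanently on drives basal cell carcinoma. In the embryonic mammary bud the pathway is kept repressed through Gli3.

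The sequences just upstream of 2 of these genes are shown because Gli proteins recognize a short motif that can be looked for in them. RefSeq promoter sequence (GRCm38.p6, the assembly that mm10 is based on) was at hand for 7 of the 9 genes, Ihh included. Shh and Gli1 had no entry. The 250 bases before the start site used in that set were searched on both strands for the Gli consensus GACCACCCA (reverse complement TGGGTGGTC) and for its inner ACCACCC (reverse complement GGGTGGT), which the longer motif contains. The consensus was in none of the 7 windows and in 0.253% of all 32851 promoters. The inner 7 bases were in 4.61% of all promoters and in 1 of the 7 windows, that of Gli2, on the opposite strand and 205 bases before the start. The shares of all promoters were counted on each full promoter sequence, without cutting it to 250 bases. Counted in that way, 0 of the 7 genes held the consensus and 1 held the inner bases. A match describes letters only and is not a measured binding site. The Gli2 window lies at chr1:119053620-119053869 on the minus strand, and its capitals mark the 7 matching bases. The Ptch1 window lies at chr13:63565736-63565985, also on the minus strand. It has no match and is shown for its base composition. Both lie inside the annotated bounds of their gene, downstream of the start of its longest transcript.
Gli2: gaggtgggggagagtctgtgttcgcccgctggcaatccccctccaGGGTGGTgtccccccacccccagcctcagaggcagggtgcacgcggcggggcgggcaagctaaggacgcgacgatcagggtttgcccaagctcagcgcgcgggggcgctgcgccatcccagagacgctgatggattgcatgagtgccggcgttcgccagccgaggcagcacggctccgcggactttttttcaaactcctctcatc
Ptch1: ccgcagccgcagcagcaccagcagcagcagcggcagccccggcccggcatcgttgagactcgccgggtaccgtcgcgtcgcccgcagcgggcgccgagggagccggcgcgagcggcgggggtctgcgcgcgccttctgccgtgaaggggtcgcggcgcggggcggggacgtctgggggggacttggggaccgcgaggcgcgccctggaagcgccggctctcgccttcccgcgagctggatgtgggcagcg
The Gli2 window had a GC content of 67.2% with 22 CpG dinucleotides and the Ptch1 window 78.4% with 41, against medians of 52.4% and 6 over all promoters.

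The tumor libraries held 6176269 to 16835397 reads on genes and the gland libraries 11672487 to 23889042. Values are given as normalized cpm, which is the read count scaled by the effective size of the library. A count of 0 allows up to 3 reads, which corresponded to 0.141 to 0.683 normalized cpm in the tumors and 0.128 to 0.366 in the glands. This limit and the intervals below cover counting error only. Tsg101, whose row takes reads of the endogenous gene and of the transgene alike, averaged 66.5 ± 15.5 normalized cpm in tumors (SD, n = 10) against 53.2 ± 7.68 in glands (SD, n = 3), a difference that did not pass the test (log2 fold change 0.30, limma adjusted p = 0.296). The labels name a core facility at UNMC and Novogene as sequencing sites without saying which libraries came from which, so site and group cannot be told apart. The tissues differed widely in composition. The summed level of 7 milk protein genes was 165034 to 305121 in the glands and 1384 to 76623 in the tumors. Fibroblast markers (12 of 12 listed) summed to 4100 to 4599 in the glands and 471 to 1307 in the tumors. The collagens Col3a1, Col1a1 and Col1a2 made up most of the gland sum, with means of 2255, 748 and 489, and of the 12 genes 5 were lower, 6 were not called and Fbln1 was higher (log2 fold change 1.65). Adipocyte markers (10 of 10) summed to 4473 to 12488 in the glands and 82.5 to 510 in the tumors. Squamous markers (10 of 10) summed to 539 to 3558 in the tumors and 16.8 to 41.4 in the glands, and hair follicle markers (15 of 16) to 128 to 4005 and 17.3 to 55.7. Luminal markers (12 of 12), at 2201 to 3843 in the tumors and 1973 to 4150 in the glands, overlapped. In whole tissue, fewer cells of a type and less RNA per cell cannot be told apart. Tumors 4 and 10 stood apart by skeletal muscle transcripts, at a summed 1900 and 323 normalized cpm against at most 11.6 in the other tumors. Gland 3 stood apart from glands 1 and 2 in the balance of long to short genes, the median log2 deviation of the 25% longest genes minus that of the 25% shortest, which was -0.50 against 0.61 and 0.51, and which ran from -0.50 to 0.37 in the tumors.

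Gli1 and Gli2, transcription factors of the pathway, and its ligand Shh were higher in the tumors than in the glands. Gli1 rose about 44.6-fold by group means and Gli2 about 6.86-fold, each with all 10 tumors above all 3 glands as for 11.4% of all listed genes, and Shh was read in every tumor and in no gland. Ptch1 was above the glands in 9 of 10 tumors without passing the test. Smo, Gli3, Hhip and Sufu did not pass it either. The test was limma on log2(normalized cpm + 1) with Benjamini-Hochberg adjustment over 11795 genes, and a gene counted as significantly deregulated at an adjusted p below 0.05 with a change of more than 2-fold. Genes at 5 normalized cpm or less in more than 6 of the 13 libraries were left out of it. This filter passed 5 of the 8 listed genes (Ptch1, Smo, Gli1, Gli2 and Sufu), and 2 of these 5 were significantly higher and 0 lower. Gli1 and Gli2 passed the filter through the tumors alone. A gene above 5 only in the 3 glands could not pass it, so the filter favors genes that are higher in the tumors. Over all genes tested, 17.2% were called, 10.2% higher and 6.99% lower. Without the filter 4 of the 8 were called higher (Shh, Ptch1, Gli1 and Gli2) and 0 lower, against 10.5% and 10.1% of all 15213 genes (20.6% in either direction). The median log2 fold change was 1.40 over the 5 genes and 0.99 over the 8, beside 0.01 over all genes in both cases. A fold change on this scale understates the change of low genes.

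**Figure D1:**
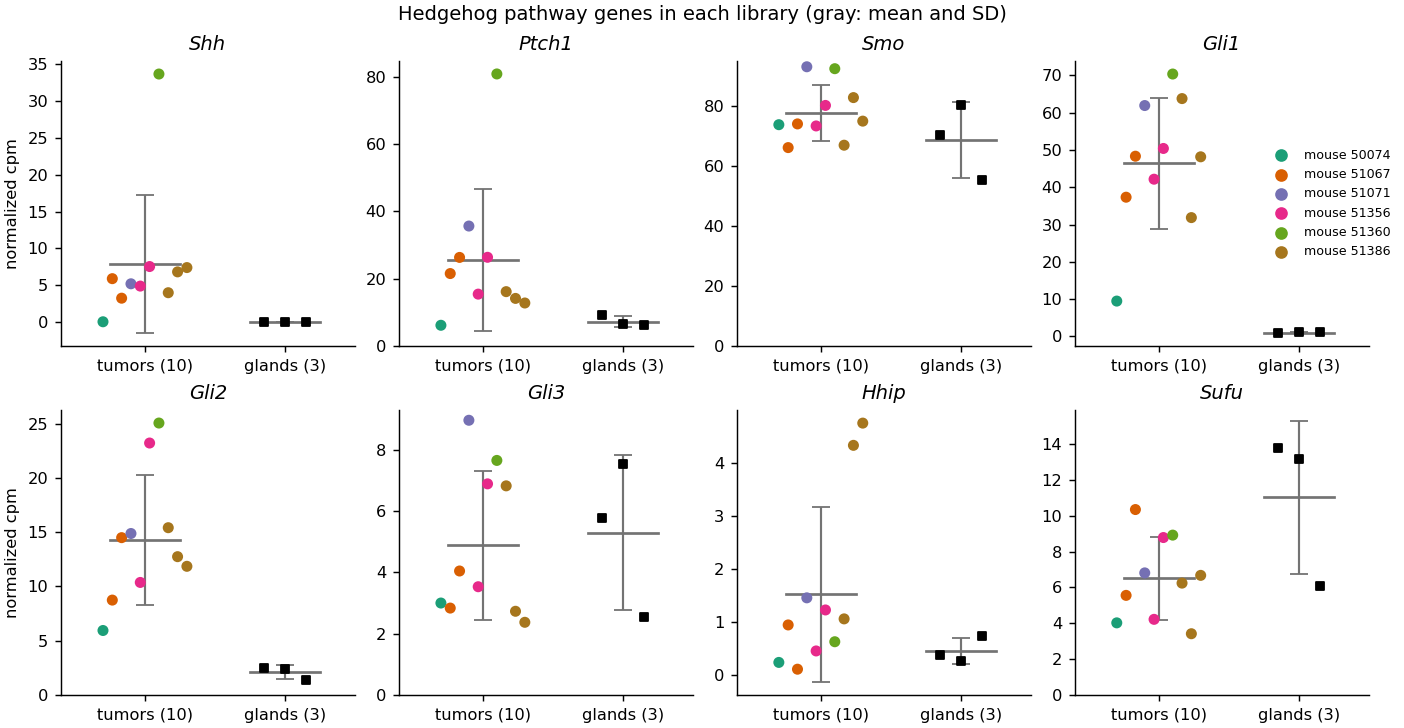
Normalized cpm of the 8 listed Hedgehog pathway genes in each library, with tumors as circles colored by mouse and glands as black squares. Gray lines give the mean and SD of each group. All tumors lie above all glands for Gli1 and Gli2, Shh is at 0 in the 3 glands, and tumor 7 has the highest Shh and Ptch1.

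Shh (Entrez 20423, chr5:28456840-28467101), the ligand, ranged over the tumors from 0.0600 to 33.7 normalized cpm with a median of 5.56, and it was at 0 in all 3 glands. The groups did not overlap, but tumor 1 held a single read, which leaves its level within the limit that a count of 0 allows. The other 9 tumors held 29 to 321 reads. Tumor 7 stood far above the rest with 321 reads and an exact Poisson 95% interval of 30.1 to 37.6 normalized cpm, followed by tumor 6 at 7.55. The tumor mean of 7.88 ± 9.33 (SD, n = 10) was at least 21.5-fold higher, and the tumor median at least 15.2-fold higher, than the largest floor of a gland library (3 reads). Because its low values kept Shh from passing the filter, it was tested without the filter, where the log2 fold change was 2.67 with an SE of 0.65 (limma adjusted p = 0.00576). The call held when all tumors of a mouse were summed to 1 sample (2.66, limma adjusted p = 0.0331). It was lost in a limma-voom fit with mouse as a block, where the log2 fold change was 6.82 (adjusted p = 0.106).

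Hair follicle and basal epithelial markers were both highest and lowest in the same tumors as Shh. The hair follicle sum was highest in tumor 7, at 4005 normalized cpm, and lowest in tumor 1, at 128, and the basal sum was 4309 and 929 there. The next highest hair follicle sum was that of tumor 9, at 1708, where Shh was at 6.83. Squamous markers were also highest in tumor 7, at 3558, but tumor 1 at 829 was not the lowest of them. The part of these cells in the level of Shh was not tested.

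Ptch1 (Entrez 19206, chr13:63508328-63573460), the receptor and a target of the pathway, ranged from 6.12 to 80.9 normalized cpm over the tumors with a median of 18.8. The glands were at 9.03, 6.56 and 6.10. All tumors but tumor 1 were above all glands, and tumor 7 was again the highest, at more than the 35.6 of tumor 4, the next in order. The means were 25.5 ± 21.2 (SD, n = 10) and 7.23 ± 1.58 (SD, n = 3), a 3.53-fold ratio. The log2 fold change of 1.40 (SE 0.51) just missed the threshold (limma adjusted p = 0.0529). It passed without tumor 1 (log2 fold change 1.58, adjusted p = 0.0160) and without tumor 7 (1.19, 0.0347), and with edgeR's quasi-likelihood test on the recovered reads (1.80, 0.0457), and in 10 of 27 alternative fits in all. It did not pass in the other 17, among them the fit with the tumors of a mouse summed (1.55, limma adjusted p = 0.0914), the limma-voom fit with mouse as a block (1.48, 0.0855), and those without gland 1, 2 or 3 (0.102, 0.154 and 0.111).

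Smo (Entrez 319757, chr6:29735497-29761366), the membrane protein that passes the signal on, did not pass the test. The tumors ranged from 66.2 to 93.1 normalized cpm around a median of 74.5, and the glands were at 70.5, 80.3 and 55.2. The groups overlapped, with 3 tumors above all glands. The means were 77.8 ± 9.38 and 68.7 ± 12.6 (SD), with a log2 fold change of 0.19 (SE 0.15, limma adjusted p = 0.405). Its spread over the tumors was the smallest of the 8 genes, with a coefficient of variation of 12.1% against 35.5% for Sufu, the next smallest.

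The co-receptors Cdon, Boc and Gas1, which help present the ligand to Patched, did not pass the test. Boc was at 117 ± 37.9 normalized cpm in the tumors and 65.7 ± 18.0 in the glands, with 8 of 10 tumors above all glands (log2 fold change 0.79, limma adjusted p = 0.0564). Gas1 differed by 0.48 on the log2 scale (adjusted p = 0.217) and Cdon by -0.23 (0.647). Boc passed in plain cpm without the ribosomal gene Rn45s (1.18, limma adjusted p = 0.00988), and all 3 co-receptors passed when libraries were scaled to fibroblast genes, at 2.19 for Boc, 1.87 for Gas1 and 1.10 for Cdon. That scaling called 8625 of all 11795 genes tested higher and moved their median log2 fold change to 1.36, which is above the value of Cdon.

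Gli1 (Entrez 14632, chr10:127329882-127341579), the activator whose own transcription depends on the pathway, had the largest log2 fold change of the 8 listed genes on the log2(normalized cpm + 1) scale, whereas edgeR, DESeq2 and limma-voom put Shh first. It ranged from 9.48 to 70.4 normalized cpm over the tumors with a median of 48.2, while the glands were at 0.942, 1.08 and 1.10 on 22, 21 and 9 reads. The lowest tumor, tumor 1, was still far above the highest gland. The means were 46.4 ± 17.7 and 1.04 ± 0.0861 (SD), and the log2 fold change was 4.39 (SE 0.43, limma adjusted p = 3.58e-06). It stayed past the threshold in all 27 alternative fits, at log2 fold changes of 3.73 to 5.49. A stretch of Gli1 (chr10:127329882-127329947) is shared with Arhgap9, and the strand setting of the counting was not given in the sources used here. Arhgap9 was at 24.2 normalized cpm in the tumors and 37.2 in the glands, the opposite order to Gli1.

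Gli2 (Entrez 14633, chr1:118834061-119054405), the main activator of the pathway's first response, rose as well. The tumors ranged from 5.94 to 25.1 normalized cpm with a median of 13.6, and the glands were at 2.53, 2.37 and 1.34. The groups did not overlap, with tumors 7 and 6 at the top (25.1 and 23.2) and tumor 1 at the bottom. The means were 14.3 ± 5.98 and 2.08 ± 0.645 (SD), and the log2 fold change was 2.23 (SE 0.33, limma adjusted p = 1.50e-04). Gli3 (Entrez 14634, chr13:15463723-15730026), the main repressor, overlapped between the groups. It ranged from 2.37 to 8.97 over the tumors with a median of 3.79, and the glands were at 5.78, 7.54 and 2.56. The test without the filter gave a log2 fold change of -0.11 (SE 0.37, limma adjusted p = 0.844), whose sign turned when gland 2 was left out (0.15).

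Of the inhibitors, Hhip (Entrez 15245, chr8:79965850-80058060) was low in both groups. The tumors ranged from 0.112 to 4.74 normalized cpm with a median of 1.00, and the glands were at 0.385, 0.258 and 0.731. The groups overlapped, with 6 tumors above and 2 below all glands. The highest values, 4.32 and 4.74, were those of tumors 9 and 10, which came from the same mouse as tumor 8 at 1.06. The test without the filter gave a log2 fold change of 0.58 (SE 0.44, limma adjusted p = 0.349), and 0.20 without that mouse. Sufu (Entrez 24069, chr19:46396896-46488804) ranged from 3.41 to 10.3 over the tumors with a median of 6.45, and the glands were at 13.8, 13.2 and 6.10. All tumors were below glands 1 and 2, and 4 were below all glands. The means were 6.50 ± 2.30 and 11.0 ± 4.27 (SD), and the log2 fold change of -0.67 (SE 0.31) did not pass the test (limma adjusted p = 0.121). Gland 3, which stood apart in the balance of long to short genes, decided this. Without it Sufu passed at -1.01 (adjusted p = 0.0283), whereas with that balance as a covariate the difference was -0.36 (0.171). Without gland 3, the calls of Gli1 (4.41) and Gli2 (2.05) and that of Shh without the filter (2.67) held. They also held without tumors 4 and 10, at 4.30, 2.23 and 2.63.

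**Figure D2:**
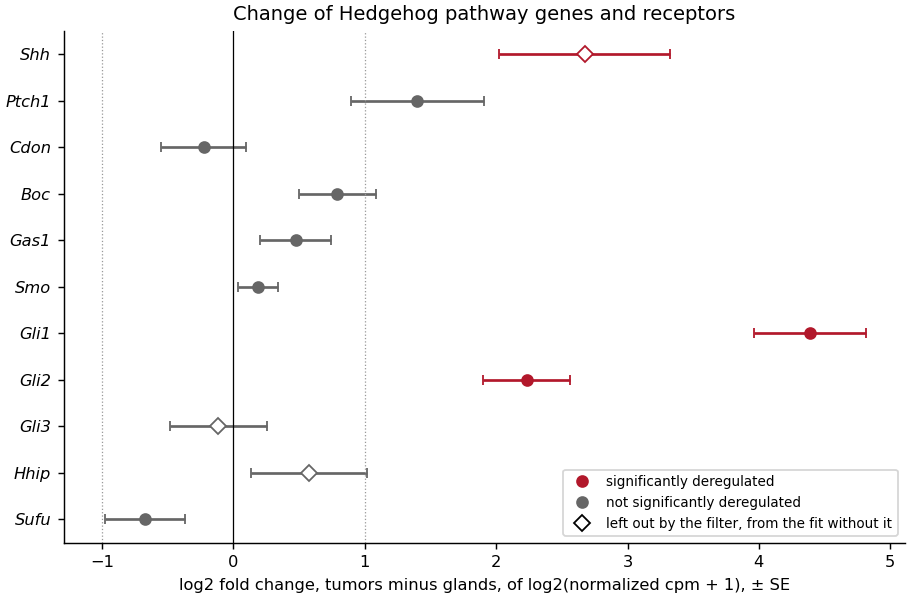
Log2 fold change of log2(normalized cpm + 1), tumors minus glands, with its SE, for the listed Hedgehog pathway genes and for the co-receptors Cdon, Boc and Gas1. Red marks significantly deregulated genes, open diamonds those left out by the filter, and dotted lines a 2-fold change. Gli1 (4.39), Shh (2.67) and Gli2 (2.23) are past the threshold, and no gene is past it in the other direction.

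Levels of different genes were compared per kilobase of exon. In the tumors, Smo had the highest mean at 20.6 ± 2.48 normalized cpm per kilobase (SD, n = 10). Gli1 at 11.4 ± 4.36 came next. Ptch1 at 3.27 ± 2.72, Shh at 2.77, with an SD above its mean, and Gli2 at 2.15 ± 0.901 formed a lower group, followed by Sufu at 0.970 ± 0.344, Gli3 at 0.587 ± 0.292 and Hhip at 0.167 ± 0.182. Of these neighbors, Smo and Gli1, and Gli1 and Ptch1, differed by more than their SDs cover. In the glands Smo was again first, at 18.2 ± 3.34 (SD, n = 3), but Sufu at 1.65 ± 0.638 was second. Ptch1 at 0.926 ± 0.203, Gli3 at 0.636 ± 0.303, Gli2 at 0.314 ± 0.0972 and Gli1 at 0.257 ± 0.0212 came after it. Hhip at 0.0505 ± 0.0270 and Shh at 0 were last. Among the gland neighbors, Smo and Sufu, and Gli1 and Hhip, were separated by more than their SDs, while a count of 0 for Shh does not set it apart from Hhip. Among the Gli factors, Gli1 had the highest mean level per kilobase in the tumors and Gli3 in the glands, where neighbors in the order overlapped within their SDs.

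Within the tumors, Gli1, Gli2 and Ptch1 shared their extremes. Tumor 1 was the lowest of the 10 for each of these genes and for Shh, and tumor 7 the highest. The ratio of the highest to the lowest tumor was 13.2 for Ptch1, 7.42 for Gli1, 4.22 for Gli2 and 1.41 for Smo. Tumor 7 and tumor 1 each came from a mouse of their own. The sums of hair follicle and basal epithelial markers had the same extremes, as given above. The sum of fibroblast markers was 1276 in tumor 7 and 485 in tumor 1, but it was highest in tumor 8, at 1307, and lowest in tumor 3, at 471, where Gli1 was at 48.3. The balance of long to short genes was also lowest in tumor 1, at -0.50. It was highest in tumor 4, at 0.37, and stood at 0.16 in tumor 7. The part of the markers and of this balance in the range of these genes was not tested.

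**Figure D3:**
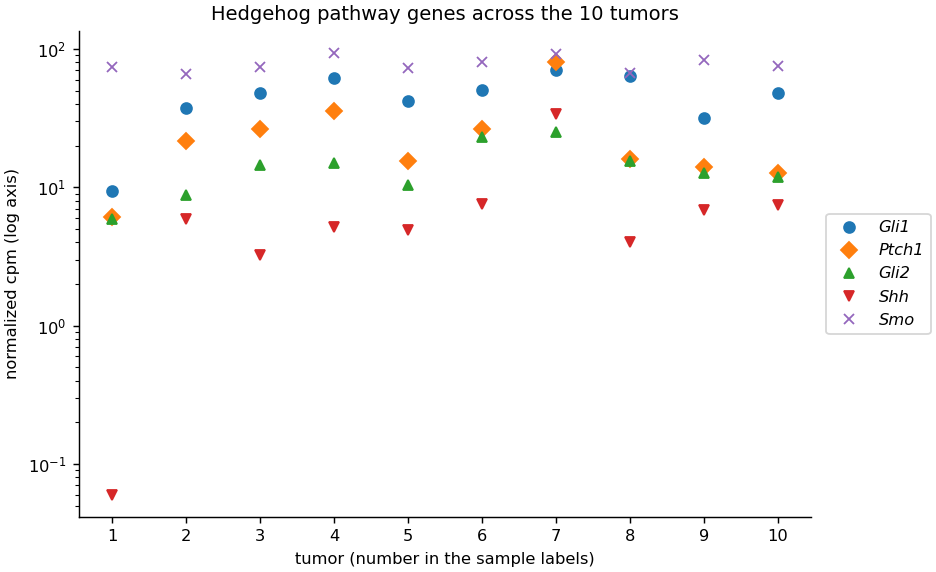
Normalized cpm of 5 Hedgehog pathway genes in each of the 10 tumors, on a log axis, with a marker for each gene. Tumor 1 is lowest for Gli1, Ptch1, Gli2 and Shh, and tumor 7 is highest for the same genes, while Smo varies by 1.41-fold.

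Of 5 relations between genes computed on log2(normalized cpm + 1) over the 10 tumors with permutation tests (two-sided), those of Gli2, Gli1 and Ptch1 passed by rank as well as by Pearson r when tumors were taken as separate samples. Gli2 and Gli1 had a Pearson r of 0.80 (permutation p = 0.00236, Benjamini-Hochberg adjusted 0.0118) and a Spearman rho of 0.89 (p = 0.00103, adjusted 0.00515), and r was 0.52 without tumors 1 and 7, which were farthest from the median of Gli2 on this scale. Gli1 and Ptch1 had an r of 0.76 (permutation p = 0.0195, adjusted 0.0326) and a rho of 0.77 (p = 0.0126, adjusted 0.0315), with an r of 0.59 without tumors 1 and 9. Shh and Gli1 had an r of 0.77 (permutation p = 0.0298, adjusted 0.0373) but a rho of 0.35 (p = 0.329, adjusted 0.412). Shh and Ptch1 had an r of 0.82 (permutation p = 0.0175, adjusted 0.0326) and a rho of 0.41 (p = 0.246, adjusted 0.410). Without tumors 1 and 7 these coefficients of Shh turned to -0.37 with Gli1 and -0.25 with Ptch1, so both relations of the ligand rest on those tumors. Gli1 and Hhip had an r of 0.18 (permutation p = 0.605) and a rho of 0.09 (p = 0.811). Over the means of the 6 mice, r was 0.91 for Gli2 and Gli1, 0.89 for Shh and Gli1, and 0.85 for Gli1 and Ptch1 (exact permutation tests, adjusted p = 0.0324 each). For Shh and Ptch1 it was 0.92 (exact permutation test, adjusted p = 0.0660). By rank, no relation passed over the 6 mice. Spearman's rho was 0.83 for Gli2 and Gli1 (exact permutation p = 0.0583, adjusted 0.171) and 0.77 for Gli1 and Ptch1 and for Shh and Gli1 (exact permutation p = 0.103, adjusted 0.171). Tumors 1, 9, 5, 10 and 2 had the lowest balance of long to short genes among the tumors, at -0.50, -0.40, -0.35, -0.31 and -0.15. The same tumors had the lowest Gli1, at 9.48, 31.9, 42.2, 48.2 and 37.3 normalized cpm. The part of this balance in the relations was not tested.

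The genes most like each member over the 10 tumors were ranked by Pearson r of log2(normalized cpm + 1) among the genes past the filter, as a description with no test. Among the genes most like Gli1 were Slco4a1 (r = 0.943) and Ehd2 (0.931). Slco4a1, an organic anion transporter, was at 23.7 ± 8.90 normalized cpm in the tumors and 0.677 ± 0.447 in the glands. Ptch1 was most like Nrp2 (0.971), Mafk (0.968) and Map3k20 (0.967). Gli2 was most like Map3k5 (0.979), Abtb2 (0.975) and Wtip (0.959). Smo was most like Ddit4l (0.942), Dgat2 (0.913) and Edar (0.905), and Sufu most like Dtx2 (0.982), Plekhg6 (0.965) and Spryd3 (0.962). These points share their library, its depth, its balance of long to short genes and, for some, the mouse.

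A wider set of 74 other pathway genes was read as well. Of these, 68 were listed and 56 tested, 6 were significantly higher, 5 lower and 45 not called, next to the 10.2% and 6.99% of all genes called in each direction. The median log2 fold change was 0.06. Without the filter, 7 of the 68 were higher and 6 lower, next to 10.5% and 10.1% of all genes. None of the 11 tested genes of the primary cilium, the antenna-like structure in which the pathway runs, was called (median 0.15). Among 24 regulators of Smo and Gli, 1 was higher and 1 lower (median -0.14). These were Kif7 (1.39, limma adjusted p = 0.00472), a kinesin of the cilium that controls Gli proteins, and Prkaca (-1.03, 0.0220), the catalytic subunit of protein kinase A, both named after their values were seen.

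Of 6 tested genes of ligand release, 2 were higher and 0 lower (median 0.59), against 10.2% and 6.99% of all genes tested. Without the filter, 2 of the 8 listed were higher and 1, Gpc3, was lower (median 0.20), against 10.5% and 10.1% of all genes. The 2 higher genes were Notum and Scube3, which passed the filter through the tumors alone. Notum, a secreted enzyme that acts on glypicans and removes the lipid of Wnt ligands, was at 11.6 to 52.2 normalized cpm in the tumors, median 24.8, and at 0.128, 0.723 and 0.244 in the glands. Its groups did not overlap (log2 fold change 4.25, SE 0.40, limma adjusted p = 2.89e-06). Scube3, of a family of secreted proteins that help free the lipid-bearing ligand, was at 8.19 to 26.9 in the tumors, median 11.7, and at 3.34, 3.41 and 1.34 in the glands. Its groups did not overlap either (log2 fold change 1.93, SE 0.33, limma adjusted p = 4.63e-04). Of 4 tested co-receptors and receptor homologs, 0 were higher and 1 was lower (median 0.13, same shares over all genes). This was Hhipl2, a homolog of Hhip (-1.86, limma adjusted p = 0.00363), named after its value was seen. Dhh, the third Hedgehog ligand, was not analysed here.

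Of 11 tested target genes, 3 were higher and 3 lower (median 0.64), against 10.2% and 6.99% of all genes tested. Cntfr, the receptor subunit for ciliary neurotrophic factor, had the largest rise. It was at 23.8 to 208 normalized cpm in the tumors, median 96.6, and at 2.14, 0.671 and 0.488 in the glands (log2 fold change 5.44, SE 0.57, limma adjusted p = 6.79e-06). Bmp4, a ligand of the bone morphogenetic protein family, rose by 1.85 and Ccnd1, which encodes Cyclin D1, by 1.05 (limma adjusted p = 0.00104 and 0.0120), and both were named after their values were seen. Hsd11b1, which regenerates active glucocorticoid and is abundant in fat, fell from 82.3, 60.6 and 218 in the glands to 1.70 to 9.78 in the tumors, median 4.46 (log2 fold change -4.20, SE 0.41, limma adjusted p = 4.18e-06), alongside the adipocyte markers given above. The part of adipocytes in this fall was not tested. Ccnd2, which encodes Cyclin D2, had a log2 fold change of -2.27 (limma adjusted p = 0.00181) and Igfbp6, an inhibitor of insulin-like growth factors, one of -1.94 (0.00951), and no tumor reached a gland's level of Hsd11b1 or Igfbp6. The call of Igfbp6 was lost without gland 3 (-1.45, adjusted p = 0.0563). The calls of Ccnd2 and Igfbp6 were lost when libraries were scaled to fibroblast genes (-0.89 and -0.65), a scaling that moves the median of all genes to 1.36.

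**Figure D4:**
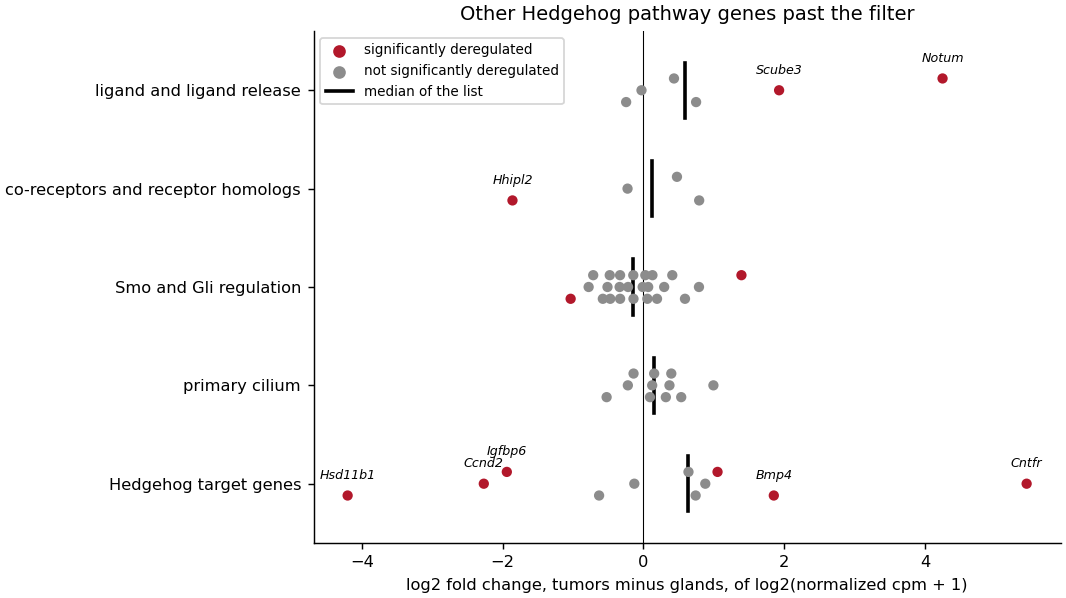
Log2 fold change, tumors minus glands, of each tested gene in the 5 lists of other Hedgehog pathway genes, with significantly deregulated genes in red and the median of each list as a black bar. Most genes lie near 0, and the largest rises are Cntfr (5.44), Notum (4.25) and Scube3 (1.93).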

How the data were processed

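Reads (75-base, paired-end) of flash-frozen tumors and glands had been mapped to mm10 with Rsubread and counted with featureCounts. The deposited signal values were counts that the authors had divided by an effective library size with edgeR. Each value was a whole number of reads (100% within 0.01 read), so that counts could be recovered. The strand setting and the filter behind the table were not given in the sources used here, and neither was which of the named sequencing sites each library came from. Because the values were normalized, limma 3.58.1 (R 4.3.3) with a variance trend was fitted to log2(normalized cpm + 1) of the 13 libraries, with tumor or gland as its term. Genes at 5 or less in more than 6 libraries were left out (3418), and their values come from the fit without this filter. edgeR 4.0.16, DESeq2 1.42.0 and other settings served as alternatives. The p-values take tumors as separate samples. Relations used 100000 permutations, or all orders of the 6 mice. Exon lengths were from GENCODE M21 and coordinates from RefSeq GRCm38.p6, the mm10 assembly. The members, the lists of other pathway genes and the marker lists were chosen with earlier results of these data known. The named genes were the 9 members, the 3 largest rises and the 3 largest falls among called genes of the other pathway lists, the ligand Dhh and the co-receptors Cdon, Boc and Gas1, and the 3 genes most like each member that was above 5 in at least 7 tumors. The test was also run on simulated counts, and the outcome is not reported here. The same replicate number of a tumor and a gland names different mice and pairs nothing. Peripheral nerve, endothelial, macrophage, lymphocyte and basal markers were also summed. A result that the naming rule covers is not reported here.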

Additional observations from a re-analysis of the deposited data

Results flagged for a closer look

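Over the tumors, 11 genes (the 8 listed Hedgehog genes, Cdon, Boc and Gas1) were looked at for a single tumor far from the other 9, by Dixon's ratio of the gap to the range, whose 95% critical value is 0.466 for 10 samples. For normally distributed values, chance exceeds it in about 1 of 20 groups. The ratio was taken on normalized cpm without a log. On the log2 scale used for the tests it was not computed, and the tumors that stand apart may differ there. Tumor 7 stood apart for Shh, at 33.7 normalized cpm with a ratio of 0.777, and for Ptch1, at 80.9 with a ratio of 0.605. Tumor 4 stood apart for Cdon, at 36.8 with a ratio of 0.493, and this tumor also held the highest sum of skeletal muscle transcripts. The part of muscle in that value was not tested.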

How the results depend on the processing

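Of 27 alternative fits, Gli1 was called in all, Gli2 in 26 and Shh in 25. Ptch1 passed in 10, with log2 fold changes of 1.40 (no filter, adjusted p = 0.0478), 1.48 (pseudocount 0.25, 0.0499), 1.80 (edgeR, 0.0457), 1.82 (DESeq2, 0.00539), 1.56 (scaled to epithelial genes, 0.0205), 2.62 (scaled to fibroblast genes, 6.26e-07), 1.75 (plain cpm without the ribosomal gene Rn45s, 0.0182) and 1.80 (balance of long to short genes as a covariate, 0.00418), and within 1.19 to 1.58 when 1 library was left out. The limma-voom fit with mouse as a block gave Shh a log2 fold change of 6.82 (0.106) and 0 calls among the members left out by the filter. Gli3 turned positive with the tumors of a mouse summed (0.052), scaled to epithelial genes (0.060) or fibroblast genes (0.98), in plain cpm (0.19), with the covariate (0.26) and without gland 2, with a range of -0.48 to 0.15 when 1 library was left out. Scaling to fibroblast genes, of which 5 of 12 were lower, 6 not called and 1 higher in the tumors, moved the median of all genes to 1.36. It gave 1.59 for Smo, 1.02 for Hhip and 0.58 for Sufu, 4 members called higher, 2 called among those left out by the filter, and 41 other pathway genes higher and 1 lower. Over all genes it called 8625 higher and 138 lower. Epithelial scaling moved that median to 0.20 and plain cpm to 0.38, and plain cpm called 11 other pathway genes higher, and 2051 of all genes higher and 475 lower. The covariate, chosen after seeing the data like the fit without tumors 4 and 10, also called 11 other pathway genes higher. Sufu ranged from -1.01 to -0.48 when 1 library was left out, with 0 to 1 members called lower. The no-filter fit called 1538 genes lower. Why calls differed elsewhere was not tested.

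A replicate block over the 3 tumors and 3 glands that share a number used fewer samples. It gave 1.65 for Shh (0.178), 1.74 for Gli2 (0.118) and -0.057 for Hhip, with 1 member higher, 0 calls among those left out by the filter, 2 other pathway genes higher and 2 lower, and 362 of all genes higher and 182 lower. The correlations of same-numbered samples were -0.58, 0.04 and -0.66. Those of differently numbered samples ran as widely, from -0.53 to 0.67, so these correlations cannot decide a pairing. The same number names different mice, and so it does not pair these samples. Over the means of the 6 mice, the r of Shh and Ptch1 was 0.92 (exact permutation test, adjusted p = 0.0660). With 3 glands, and as few as 9 reads of Gli1 in a gland, small differences in low genes may have been missed.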

Other observations

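Foxc2 and Gpc3 were the other pathway genes that passed in the fit without the filter alone, and they were named after their values were seen. Foxc2, a forkhead factor, was at 1.38 to 7.66 normalized cpm in the tumors and at 0.214, 0.207 and 0.122 in the glands (log2 fold change 2.08, limma adjusted p = 8.16e-05). Gpc3, a glypican that competes with Patched for the ligand, was at 0 to 4.71 in the tumors and at 7.41, 8.47 and 5.12 in the glands (-1.83, 0.00479).

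Of the other marker sums, that of macrophages (8 of 8 genes listed) was 922 to 4524 in the tumors and 508 to 1843 in the glands, lymphocyte markers (12 of 12) were at 54.2 to 257 and 59.5 to 960, and endothelial markers (6 of 6) at 106 to 236 and 207 to 582. Peripheral nerve markers (8 of 8) at 222 to 409 and 233 to 423 overlapped between the groups. The sum of basal epithelial markers (8 of 8) also overlapped, at 929 to 4309 and 674 to 2178, but its members went opposite ways. The keratins Krt5, Krt14 and Krt17 and the transcription factor Trp63 were higher in all 10 tumors (log2 fold changes 2.82, 1.73, 5.21 and 2.68), whereas the contractile genes Acta2 and Myh11 and the oxytocin receptor Oxtr were lower in all 10 (-4.32, -5.05 and -4.52), as was Cnn1 in the fit without the filter (-4.35). All 7 tested basal genes passed the limma test.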
